A study of Mus musculus with 2 samples.

Results

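Interleukins are small secreted proteins through which leukocytes, fibroblasts, endothelial cells and muscle cells signal to each other, and each acts through a receptor of 1 or more chains on the receiving cell. The genes described here are those whose symbol begins with *Il* and a number, with *Il6st* and *Il6ra* left out. Of 20284 genes with a probe on the array, 79 met this rule, and 35 of them were measured, which means that a probe was well above background on at least 1 of the 2 arrays by the scanner software's own test. The other 44 were near background in both pools. The rule goes by symbol, so that it takes in *Il18bp*, a secreted binding protein, *Il4i1*, an L-amino acid oxidase, and *Il1bos*, a noncoding antisense RNA, beside the ligands and receptors.

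RNA came from the left ventricle of male mice aged 12 weeks, taken at ZT2, which is 2 hours after lights on. In the H-Bmal1-/- mice part of the floxed *Bmal1* gene, the exon for its DNA-binding domain, was removed by a Cre transgene under the αMHC promoter, which is active in cardiac muscle cells, and not in the other cells of the ventricle. Controls were littermates with the floxed gene and no Cre, whose genotype the labels call wild type. RNA of 6 animals was pooled for each genotype, and each pool was hybridised to 1 single-color array of the same slide. There is thus 1 sample for each genotype and no test of any difference, no group carried Cre without the floxed gene, and differences between animals cannot be seen. A tissue sample also cannot tell fewer cells of a type from less RNA per cell.

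Values are processed signals, that is, spot brightness after the scanner software's background correction, in arbitrary units. Each array was scaled to its 75th percentile, which was 190.1 on the H-Bmal1-/- array and 171.1 on the control array. A log2 ratio is the scaled signal of the H-Bmal1-/- pool minus that of the control pool, and at least 1.5-fold, or 0.58 on the log2 scale, was used as a descriptive threshold. The targeted gene, listed as *Arntl*, had a signal of 328 in the H-Bmal1-/- pool and 513 in the control pool, a log2 ratio of -0.80. It was lower in the pool labelled as the knockout. Whether its probe lies in the removed exon was not determined, so this is a limited check of the labels, and the remaining signal was not assigned to a cell type or transcript. The only measure of error is the spread between spots of 1 probe on the same array pair. Over 253 probes with at least 8 spots, these ratios had a median SD of 0.07 within a probe. It was 0.27 for the 30 such probes with signals up to 50 and 0.05 for the 117 with signals above 500, and it does not include differences between animals.

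Of the 35 measured members, 21 had a positive and 14 a negative log2 ratio, with a median of 0.04, against a median of -0.01 over all 13848 measured genes. In the H-Bmal1-/- pool 4 members were at least 1.5-fold higher, namely *Il6*, *Il11*, *Il1f10* and *Il12rb1*. That is 11.4% of the members, against 6.16% of all measured genes. Another 4 were at least 1.5-fold lower, namely *Il1rl1*, *Il15*, *Il18r1* and *Il10rb*, which is again 11.4%, against 5.85% of all measured genes. *Il6*, *Il11* and *Il1f10* count as measured only through the H-Bmal1-/- pool, where they were high, so they had to differ. Among genes above background on both arrays, 1 of 31 members was at least 1.5-fold higher (3.23%), against 5.10% of all 13051 such genes, and 4 of 31 were lower (12.9%), against 4.51%. Those 4 include *Il1rl1*, which passed through a probe above background in the control pool only. With only probes above background on both arrays, 3 of 31 members were lower, beside 557 of all 13045 genes. The share of genes past the threshold was larger at low signal. Among genes with a mean signal under 50, 12.3% were called higher and 14.7% lower, and among genes of 50 or more 4.57% and 3.56%. Of the 16 members under 50, 4 were higher and 2 lower. Of the 19 members of 50 or more, 0 were higher and 2 were lower, *Il15* and *Il10rb*.

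**Figure D1:**
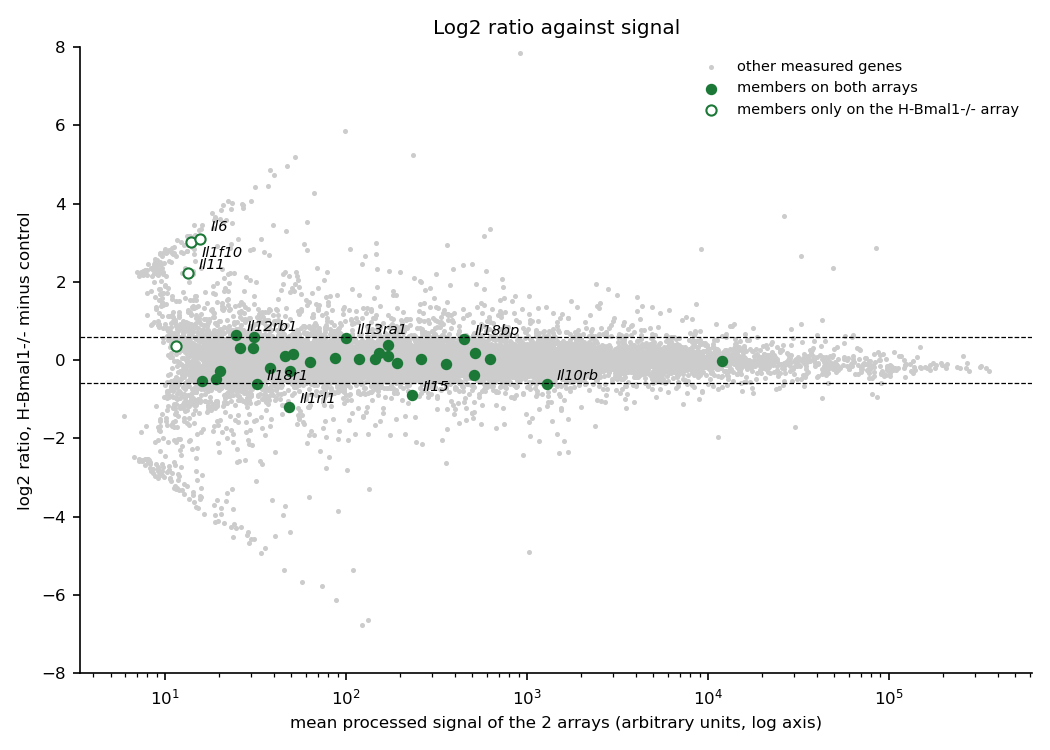
Log2 ratio, H-Bmal1-/- minus control, against the mean processed signal of the 2 arrays (arbitrary units, log axis) for all 13848 measured genes (gray) and the 35 members (green). Open circles are the 4 members that were well above background only in the H-Bmal1-/- pool, and dashed lines mark 1.5-fold. The scatter of all genes widens to the left, where 16 of the members lie, and *Il15* and *Il10rb* are the members below the lower line at signals above 100.

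Ligands and receptors differed in how often they could be measured. Of 38 ligands and antagonists, 12 were measured (31.6%), against 21 of 37 receptor chains (56.8%). The median log2 ratio was 0.04 for the measured ligands and 0.04 for the measured receptors. The members near background included the T cell cytokines *Il2*, *Il4*, *Il13*, *Il17a*, *Il21* and *Il22*, the anti-inflammatory *Il10*, and the IL-1 receptor antagonist *Il1rn*. Their signals lay between 2.20 and 14.2 in the H-Bmal1-/- pool and between 2.18 and 11.6 in the control pool. At such signals a difference was not detectable, and their ratios are not given.

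**Figure D2:**
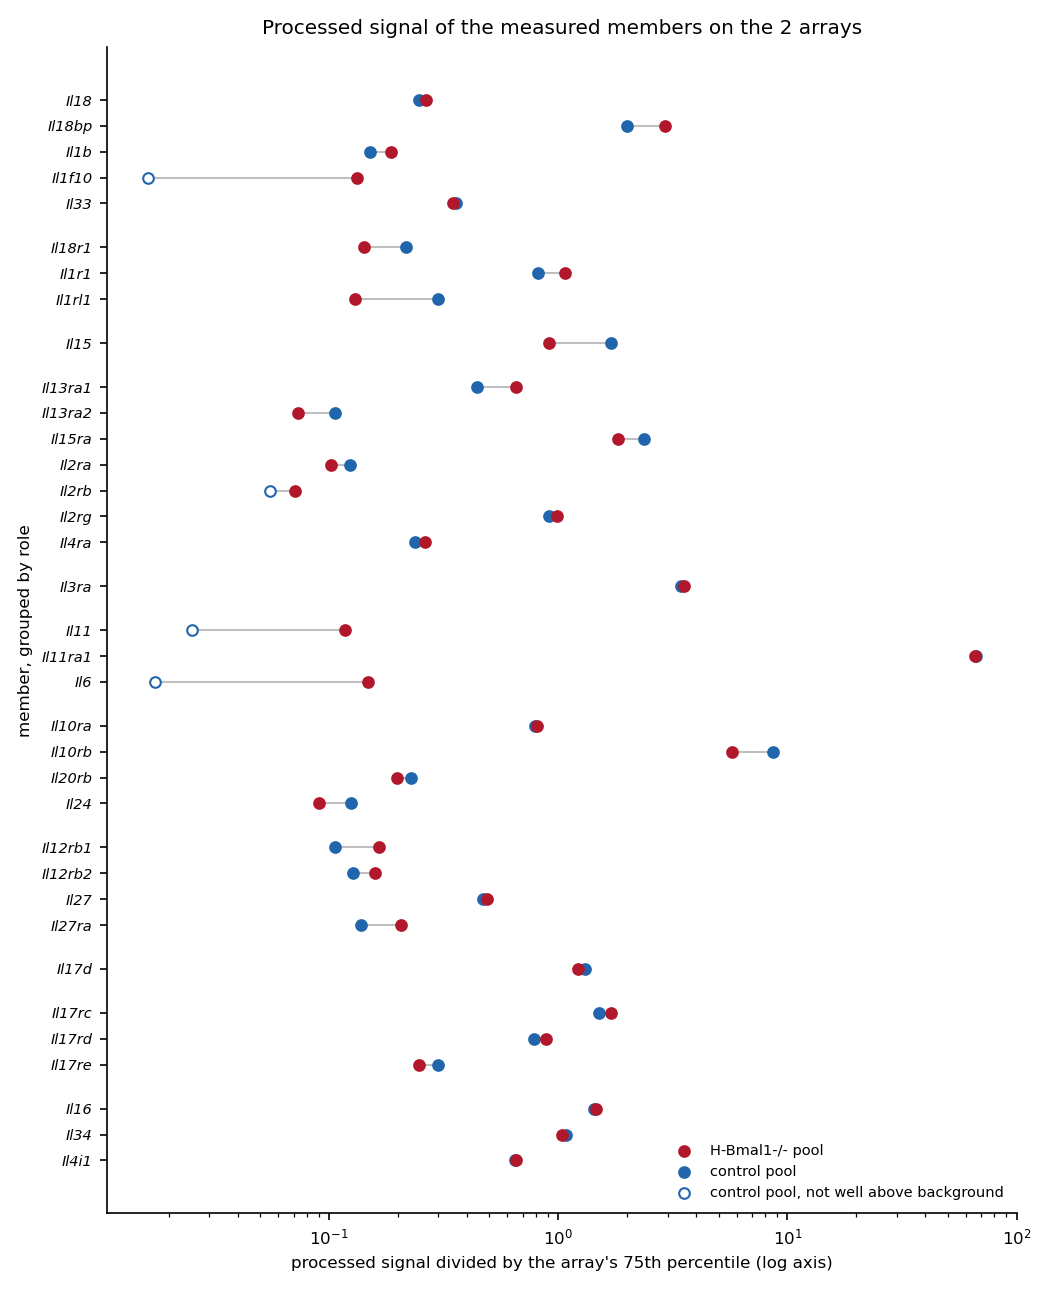
Processed signal divided by the 75th percentile of its array (log axis) for the 35 measured members, grouped by role, in the H-Bmal1-/- pool (red) and the control pool (blue). Signals of different probes are not comparable, so only the 2 points of a line should be compared. The open blue circles mark *Il1f10*, *Il2rb*, *Il11* and *Il6*, which were not well above background in the control pool. The red point lies left of the blue one for 14 members, by at least 1.5-fold for *Il1rl1*, *Il15*, *Il18r1* and *Il10rb*.

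*Il6* encodes a pleiotropic cytokine of the acute phase response, and *Il11* a relative that signals through the same gp130 chain and acts on fibroblasts. Both were well above background in the H-Bmal1-/- pool only. The 2 spots of the *Il6* probe read 26.1 and 30.5 in the H-Bmal1-/- pool and 3.57 and 2.46 in the control pool. All spots of the first pool were thus above those of the second. Because the control value is below what the array measures, the difference has only a bound. Set against the lowest signal of a spot well above background on the control array, 11.1, *Il6* was at least 2.30-fold higher. The single spot of *Il11* had a signal of 22.4 in the H-Bmal1-/- pool and 4.31 in the control pool, which gives at least 1.82-fold higher. Both bounds depend on this choice of lowest signal and are not strict limits. The signal of *Il17ra* in the control pool, 11.6, was not well above background. The receptor chain of IL-11, *Il11ra1*, was bright in both pools, at 12500 in the H-Bmal1-/- pool and 11326 in the control pool, with a log2 ratio of -0.01. The array may not separate *Il11ra1* from *Il11ra2*, a near-identical copy in the mouse, and *Il11ra2* was not analysed here. In the same family *Il31* and its receptor *Il31ra* were near background.

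The windows around the starts of *Il6* and *Il11* are shown because *Bmal1* encodes a factor that binds DNA. These cytokine genes were chosen from the members above background in the H-Bmal1-/- pool only. The others of that kind, *Il1f10* and *Il2rb*, are not shown. BMAL1 and its partner bind a motif called the E-box, whose letters are CACGTG. The REV-ERB repressors of the clock bind sites that hold AGGTCA. Inducible cytokine genes are known targets of AP-1, which binds TGACTCA. RefSeq promoter windows of GRCm38.p6, 250 bases before to 50 after each start, were read on both strands for the 26 measured members with an entry, 36 windows in all. The other measured members, among them *Il15* and *Il10rb*, had no entry and were not searched. The 250 bases before the start are given 5′ to 3′ on the gene's own strand, with matches to these 3 motifs in capitals.
*Il6*, chr5:30012864-30013113, plus strand: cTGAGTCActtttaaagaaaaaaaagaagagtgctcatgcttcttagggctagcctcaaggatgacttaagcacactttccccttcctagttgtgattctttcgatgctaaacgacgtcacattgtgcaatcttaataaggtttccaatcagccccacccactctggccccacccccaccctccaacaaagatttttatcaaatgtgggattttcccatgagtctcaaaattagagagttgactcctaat
*Il11*, chr7:4778142-4778391, minus strand: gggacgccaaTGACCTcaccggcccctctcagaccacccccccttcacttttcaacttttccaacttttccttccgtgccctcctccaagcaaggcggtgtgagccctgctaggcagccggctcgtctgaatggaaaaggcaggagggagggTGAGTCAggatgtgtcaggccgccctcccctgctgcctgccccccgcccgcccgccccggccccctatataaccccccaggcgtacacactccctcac

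The window of *Il6* held 1 AP-1 motif, and that of *Il11* 1 AP-1 motif and 1 AGGTCA match on the other strand. Only windows with an AP-1 motif were printed, so its presence in both was set by that choice. No window of a measured member held CACGTG, which 7.15% of all 32851 windows hold. AGGTCA was in 13.9% of the members' windows, against 16.3% of all windows. TGACTCA was in 13.9% of the members' windows, those of *Il6*, *Il11*, *Il13ra2*, *Il15ra* and *Il16*, against 5.20% of all. Several genes have more than 1 window, so that windows of 1 gene share sequence. A match of letters is not evidence of binding, and no match says only that the letters are not in this window.

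The IL-1 family holds inflammatory cytokines that signal through MyD88, and 5 of its 11 ligands and antagonists were measured. *Il1b*, the main inflammatory ligand, is printed 10 times on the array. Its spots read 29.7 to 47.6 in the H-Bmal1-/- pool, with a median of 34.8, and 20.9 to 30.1 in the control pool, with a median of 25.05. After scaling, 9 of 10 spots had a positive log2 ratio and 7 of the 10 in the H-Bmal1-/- pool lay above every control spot. The ranges thus overlapped. The mean log2 ratio was 0.30 with an SD of 0.26 between spots, or 1.23-fold, which is under the threshold. The spots repeat 1 pair of RNA pools and do not stand for animals.

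**Figure D3:**
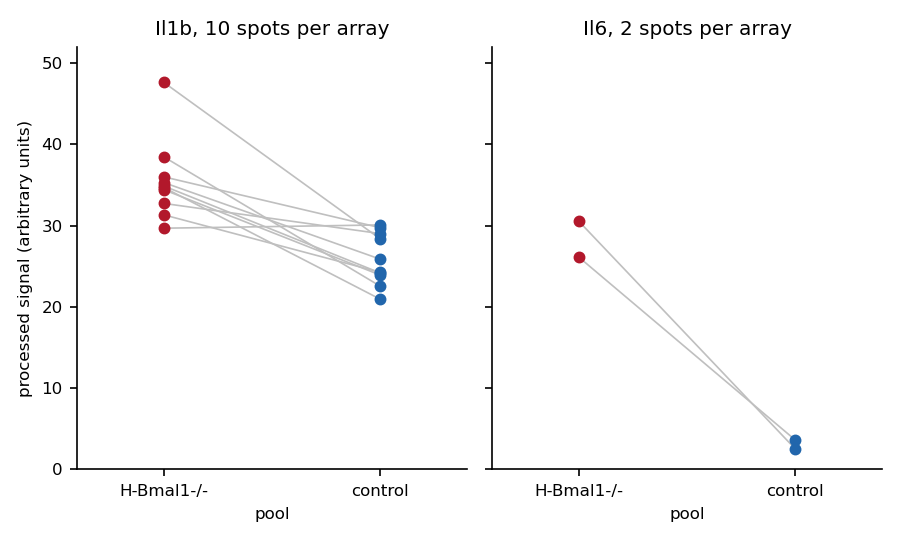
Processed signal (arbitrary units) of each spot of *Il1b* (10 spots) and *Il6* (2 spots) in the H-Bmal1-/- pool (left) and the control pool (right), before scaling. Lines join the same position on both arrays. For *Il1b* the ranges of 29.7 to 47.6 and 20.9 to 30.1 overlap slightly, and for *Il6* the control spots lie at the background.

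Among the other ligands of this family, *Il1f10*, which encodes IL-38, read 25.1 in the H-Bmal1-/- pool and 2.79, below what the array measures, in the control pool. Against the same lowest control signal it was at least 2.04-fold higher, on 1 spot. *Il33*, an alarmin held in the nucleus of stromal and endothelial cells, read 66.0 in the H-Bmal1-/- pool and 61.0 in the control pool, a log2 ratio of -0.04. *Il18*, an inflammasome product that induces interferon-γ, read 50.2 in the H-Bmal1-/- pool and 42.3 in the control pool, a log2 ratio of 0.10. Neither differed by more than the spread between spots. The decoy of IL-18, *Il18bp*, read 555 in the H-Bmal1-/- pool and 343 in the control pool. Its log2 ratio of 0.54 lay just short of the threshold and was several times the spot SD of 0.09 for probes between 100 and 500. That SD does not include differences between animals or pools. *Il1a*, *Il1rn* and the IL-36 genes *Il1f5*, *Il1f6*, *Il1f8* and *Il1f9* were near background.

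Only 3 of the 9 receptor chains of the IL-1 family were measured, and their ratios differed in sign. *Il1rl1* encodes ST2, the receptor for IL-33, which exists as a membrane form and as a soluble decoy. Its brighter probe read 69.2 in the H-Bmal1-/- pool and 87.0 in the control pool, a log2 ratio of -0.48. A dimmer probe read 8.86 in the H-Bmal1-/- pool, not well above background there, and 29.9 in the control pool, at least 2.999-fold lower. A further probe was near background in both pools. The gene's mean log2 ratio of -1.19 therefore rests on the dimmer probe, and it was -1.03 with that probe at its bound. The probes were not assigned to the forms of ST2.

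*Il18r1*, the ligand-binding chain of the IL-18 receptor, read 26.9 in the H-Bmal1-/- pool and 37.2 in the control pool, a log2 ratio of -0.62 that lay just past the threshold at a dim signal. A further probe of *Il18r1* was near background in both pools, and with no filter on dim probes the gene was at -0.40. The partner chain of *Il18r1*, *Il18rap*, was near background. *Il1r1*, the signalling receptor for IL-1, had the opposite sign, with 203 in the H-Bmal1-/- pool and 140 in the control pool, a log2 ratio of 0.39. In the RefSeq order of protein-coding genes, *Il1r2*, *Il1r1*, *Il1rl2*, *Il1rl1*, *Il18r1* and *Il18rap* are 6 neighbours on chromosome 1, so the 3 measured genes of this cluster include 1 with a positive and 2 with a negative ratio. The decoy *Il1r2*, the shared chain *Il1rap*, *Il1rl2*, *Il1rapl1* and *Il1rapl2* were near background.

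Genes that act below the IL-1 receptor and were above background in both pools lay within 1.5-fold, as did most genes. Of all 13051 genes above background on both arrays, 5.10% were at least 1.5-fold higher and 4.51% lower. Of 12 adaptors and kinases of this pathway, 12 were measured, with 0 past the threshold and a median log2 ratio of -0.05. The highest were the kinase *Irak4* at 0.46 and *Irak3*, an inhibitory relative, at 0.32, and the lowest were *Tab1* at -0.28 and the inhibitory receptor *Sigirr* at -0.26. Of 13 NF-κB subunits and inhibitors, 12 were measured, with 0 past the threshold and a median of 0.09. *Nfkbia*, which encodes the inhibitor IκBα, was the lowest at -0.28, with signals of 2435 in the H-Bmal1-/- pool and 2661 in the control pool, followed by *Tnfaip3*, a deubiquitinase that limits NF-κB, at -0.13. *Ikbkg* at 0.33 and *Nfkbiz* at 0.27 were the highest. Of 8 inflammasome genes, 5 were measured, with a median of 0.01. The adaptor *Pycard* was at -0.41, caspase-1 (*Casp1*) and the pore protein gene *Gsdmd* at 0.01 and *Casp4* at 0.28, while the sensor *Nlrp3* was well above background in the H-Bmal1-/- pool only, at 13.5, against 8.53 in the control pool.

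*Il15* had the largest difference among the 19 members with mean signals of 50 or more. IL-15 is a cytokine of muscle and myeloid cells that maintains natural killer and memory T cells, and its receptor chain presents it on the cell surface. The probe of *Il15* read 173 in the H-Bmal1-/- pool and 290 in the control pool, a log2 ratio of -0.90 or 1.86-fold lower, beside a spot SD of 0.09 for probes between 100 and 500. *Il15* kept this direction and at least 1.5-fold under all 8 processing alternatives, between -0.90 and -0.64. Its only probe was bright on both arrays, so the alternatives that choose probes could not change this value. The authors' value table, which holds the same signals, also gave -0.90. The 2 probes of *Il15ra* were lower as well, at log2 ratios of -0.57 and -0.18. The brighter of them read 850 in the H-Bmal1-/- pool and 868 in the control pool.

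The remaining receptors of the common γ chain cytokines and IL-13 that were above background in both pools lay within 1.5-fold. The shared chain *Il2rg* read 187 in the H-Bmal1-/- pool and 156 in the control pool, a log2 ratio of 0.11. *Il2rb*, which IL-2 and IL-15 share, was well above background only in the H-Bmal1-/- pool, at 13.4, against 9.45 in the control pool, and its bound was at least 1.09-fold. *Il2ra*, the high-affinity chain for IL-2, was at -0.28 on a dim probe. *Il4ra*, the chain that IL-4 and IL-13 share, was at 0.30 on its brighter probe and at 0.00 on its dimmer one. The chains that bind IL-13 had opposite signs. *Il13ra1*, the signalling chain, read 124 in the H-Bmal1-/- pool and 75.6 in the control pool, a log2 ratio of 0.56. *Il13ra2*, a decoy, read 13.9 in the H-Bmal1-/- pool and 18.2 in the control pool, a log2 ratio of -0.54 that is within what dim spots show. *Il7r*, *Il9r* and *Il21r* were near background, as were the ligands *Il2*, *Il4*, *Il7*, *Il9*, *Il13* and *Il21*, which makes 6 of the 7 ligands of the group.

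*Il10rb* is the common second chain of the receptors for IL-10, IL-22 and the interferons λ. It read 1084 in the H-Bmal1-/- pool and 1486 in the control pool, a log2 ratio of -0.61 or 1.52-fold lower. That is just past the threshold, and with no scaling between arrays it was -0.46, short of the threshold. The spot SD of probes this bright was 0.05, which does not include differences between animals or pools. The chain specific to IL-10, *Il10ra*, read 154 in the H-Bmal1-/- pool and 135 in the control pool, a log2 ratio of 0.04. So 1 chain of the IL-10 receptor was lower and the other was not. *Il24*, the only ligand of this family above background, had a log2 ratio of -0.48 at signals of 17.1 in the H-Bmal1-/- pool and 21.4 in the control pool, and *Il20rb*, a chain of its receptors, was at -0.20. The other members of this family, *Il10*, *Il19*, *Il20*, *Il22*, *Il20ra*, *Il22ra1* and the decoy *Il22ra2*, were near background.

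The measured receptors of the IL-12 family, which act mainly in T and natural killer cells, were all dim. Each had a positive ratio, although *Il12rb2* was at -0.07 under 1 alternative, normexp, a background model with an added offset that pulls dim signals together. *Il12rb1*, shared by IL-12 and IL-23, read 31.2 in the H-Bmal1-/- pool and 18.1 in the control pool, a log2 ratio of 0.64. *Il27ra* read 39.0 in the H-Bmal1-/- pool and 23.5 in the control pool, a log2 ratio of 0.58 that fell just short of the threshold. *Il12rb2* read 30.1 in the H-Bmal1-/- pool and 21.8 in the control pool, a log2 ratio of 0.32. Both *Il12rb1* and *Il12rb2* had a further probe that was near background in both pools. The ligand subunit *Il27* was at 0.06, with 93.1 in the H-Bmal1-/- pool and 80.3 in the control pool, while *Il12a*, *Il23a* and *Il23r* were near background. These receptor signals are in the range where spots of 1 probe differ by an SD of 0.27, and under the same correction *Il12rb1* was at 0.08 and *Il27ra* at 0.11.

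The measured IL-17 receptors, which act on fibroblasts and epithelial cells, all lay within 1.5-fold, as did most of all measured genes. *Il17rc* had 2 probes at 0.34 and 0.02, the brighter with 1110 in the H-Bmal1-/- pool and 791 in the control pool. *Il17rd*, which also restrains fibroblast growth factor signals, was at 0.17, and *Il17re*, the neighbour of *Il17rc* on chromosome 6, at -0.28. Its ligand *Il17c* was near background, as were the ligands *Il17a*, *Il17b*, *Il17f* and *Il25* and the receptor chains *Il17ra* and *Il17rb*. *Il17d* was the only measured ligand, at -0.10 over 2 probes. Of the 4 adaptors of these receptors in the list, 0 passed the threshold, and *Traf3* was the highest at 0.47, with 1569 in the H-Bmal1-/- pool and 1022 in the control pool, followed by *Traf3ip2*, the receptor-proximal adaptor, at 0.13, *Traf5* at 0.05 and *Traf2* at -0.09.

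Several members had almost equal signals in the pools. *Il34*, a ligand of the macrophage receptor CSF1R, read 198 in the H-Bmal1-/- pool and 186 in the control pool, a log2 ratio of -0.06. *Il16*, a chemoattractant for CD4+ cells, was at 0.03, *Il3ra* at 0.03 and *Il4i1* at 0.03. *Il3*, *Il5*, *Il5ra* and *Il1bos* were near background. In all, 15 of the 35 measured members had an absolute log2 ratio under 0.2.

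Signalling genes below the other receptors also lay within 1.5-fold. Of 11 JAK kinases and STAT factors, 10 were measured, with a median log2 ratio of -0.06. *Stat5a*, which carries signals of the common γ chain and IL-3 receptors, was the lowest at -0.58, just short of the threshold, with 314 in the H-Bmal1-/- pool and 421 in the control pool, and its near-identical relative *Stat5b* was at -0.37. *Stat2* was at 0.21, and *Stat3*, which gp130 activates, was at 0.11. Among 11 measured of 12 SOCS, CIS and PIAS inhibitors, the median was -0.02. *Socs3*, a feedback inhibitor that IL-6 induces, was at 0.33, with 334 in the H-Bmal1-/- pool and 239 in the control pool. *Socs6* was at 0.45, *Pias1* at -0.26 and *Pias4* at -0.23. Of 12 ligands and receptors of these families whose symbols lack *Il*, 11 were measured, with 0 past the threshold and a median of 0.22, from *Ptprz1* at -0.49 and *Csf1* at -0.21 to *Tslp* at 0.49 and *Csf2ra* at 0.50.

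Markers of the cells that make or receive these cytokines differed between the pools in part. All 10 fibroblast markers had a positive ratio, with a median of 0.57, and 5 were at least 1.5-fold higher, led by the matrix genes *Postn* at 1.87 and *Col1a1* at 0.90, while *Ddr2* was at 0.13 and *Tcf21* at 0.16. Their summed scaled signal was 457 in the H-Bmal1-/- pool and 306 in the control pool. Dendritic cell markers were dim, with 3 of 5 measured and *Xcr1* and *Clec9a* near background. Their summed scaled signal was 0.578 in the H-Bmal1-/- pool and 0.291 in the control pool, with *Itgax* at 1.28 and *Cd209a* at 0.74, while *Flt3* was above background in the H-Bmal1-/- pool only. Their median was 0.76, and it was 0.25 with 1 of 3 negative under normexp. Among 3 measured monocyte markers, *Ccr2* was at 0.63, *Plac8* at 0.43 and *Chil3* at -0.14. Of the 10 macrophage markers, 9 were measured, with a median of 0.03 and a summed scaled signal of 36.8 in the H-Bmal1-/- pool and 35.6 in the control pool. The highest were *Mrc1* at 0.18 and *Adgre1* at 0.14, and the lowest *Cd163* at -0.26 and *Mertk* at -0.22.

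Lymphocyte markers gave no common direction. For T and natural killer cells 6 of 10 were measured, with 3 positive and 3 negative ratios, a median of 0.04 (-0.087 with only probes above background on both arrays) and a summed scaled signal of 11.0 in the H-Bmal1-/- pool and 12.1 in the control pool. *Cd8a*, *Ncr1* and *Klrb1c* were near background, while *Cd3d* was at 0.36, *Cd3e* at -0.19 and *Cd4* at -0.33. *Cd3g*, at 0.29, was well above background in the H-Bmal1-/- pool only, at 14.8, against 10.9 in the control pool. With only probes above background on both arrays, 2 ratios were positive and 3 negative. The median was -0.12 for 4 measured B cell markers, from *Ms4a1* at -0.21 and *Cd22* at -0.15 to *Cd79b* at -0.05. It was -0.23 for 4 neutrophil markers, with *S100a9* at -0.28, *S100a8* at -0.27 and *Csf3r* at -0.20. The other, *Retnlg*, had a positive ratio and was well above background in the H-Bmal1-/- pool only, at 14.1, against 8.57 in the control pool. For 5 mast cell markers the median was -0.17, from *Mcpt4* at -0.36 and *Tpsb2* at -0.34 to *Cma1* at -0.08 and *Cpa3* at 0.01. The 10 cardiomyocyte markers all had negative ratios, with a median of -0.19, a summed scaled signal of 6118 in the H-Bmal1-/- pool and 6952 in the control pool, with *Tnni3* at -0.42 and *Pln* at -0.41 the lowest and *Tnnt2* at -0.08 the highest. Of 10 endothelial markers 9 were negative, with a median of -0.11, from *Cdh5* and *Kdr* at -0.22 to *Erg* at -0.01 and *Emcn* at 0.10. With no scaling between arrays, 4 of 10 cardiomyocyte markers and 6 of 10 endothelial markers had a positive ratio, whereas the fibroblast markers were positive in 10 of 10 under each alternative. The part of these markers in the differences of *Il6*, *Il11*, *Il15*, *Il1rl1*, *Il10rb* and the other members was not tested.

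**Figure D4:**
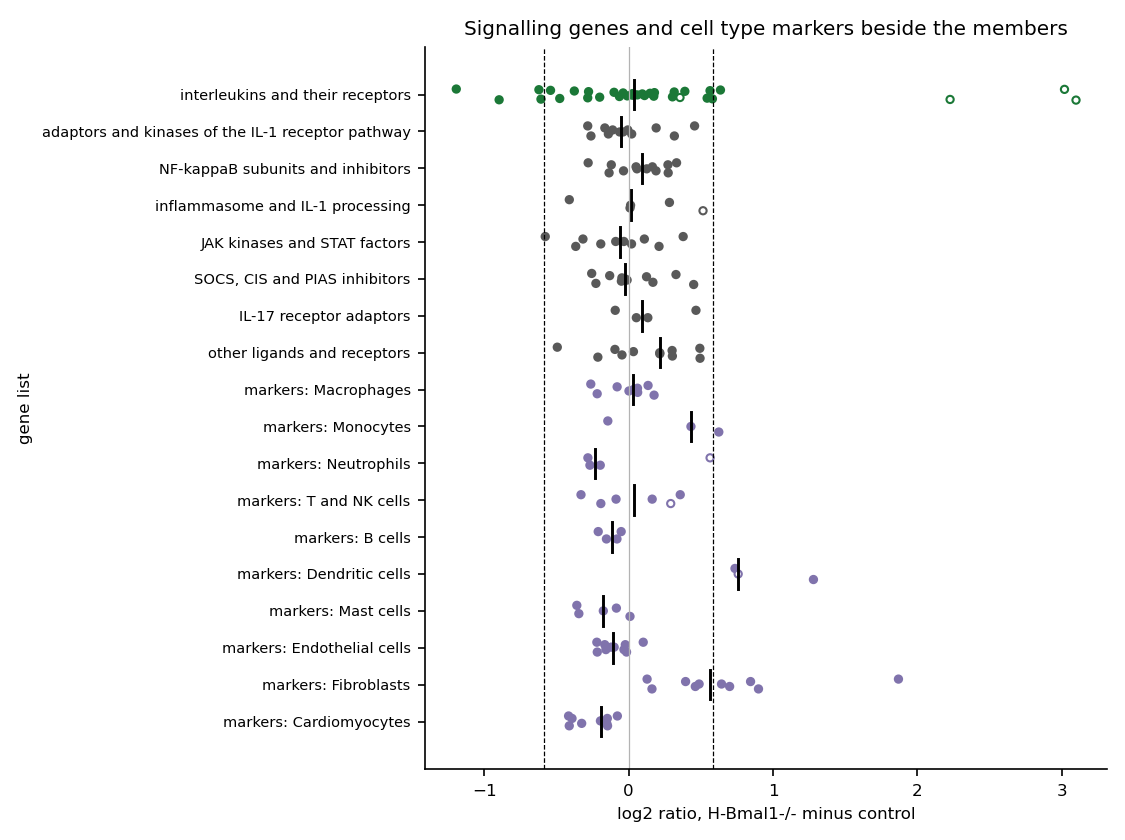
Log2 ratio, H-Bmal1-/- minus control, of each measured gene of the members (green), of 7 lists of signalling genes and related ligands and receptors (gray) and of 10 lists of cell type markers (purple). Open circles are genes well above background on 1 array only, black ticks are list medians, and dashed lines mark 1.5-fold. These open circles are drawn at the measured ratio and not at the bound, which is smaller for *Il6*, *Il1f10* and *Il11*. The members spread wider than the signalling lists, whose medians lie between -0.06 and 0.22. However, 16 of the 35 members had mean signals under 50. The median absolute log2 ratio was 0.51 for those, against 0.38 for all such genes. For members of 50 or more it was 0.11, against 0.16. The fibroblast and dendritic cell markers lie to the right.

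The size of the difference depended on the handling of dim signals for most of the members past the threshold. *Il15* was past it under 8 of 8 processing alternatives and *Il10rb* under 6 of 8. *Il18r1* was past it under 4 of 8 and *Il1rl1* under 5 of 8. *Il6*, *Il11* and *Il1f10* passed under 6 of the 7 alternatives that kept them, and their values were 0.27, 0.28 and 0.19 under normexp. *Il12rb1* was past it under 7 of 8. None of the 8 called members changed sign under these alternatives. For a gene with 1 probe, however, the alternatives that choose probes return the same value or drop the gene. The value table holds the same signals, so these counts are not of independent checks. Of the members just short of the threshold, *Il27ra* and *Il13ra1* passed under 2 of 8 alternatives each and *Il18bp* under 1 of 8.

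**Figure D5:**
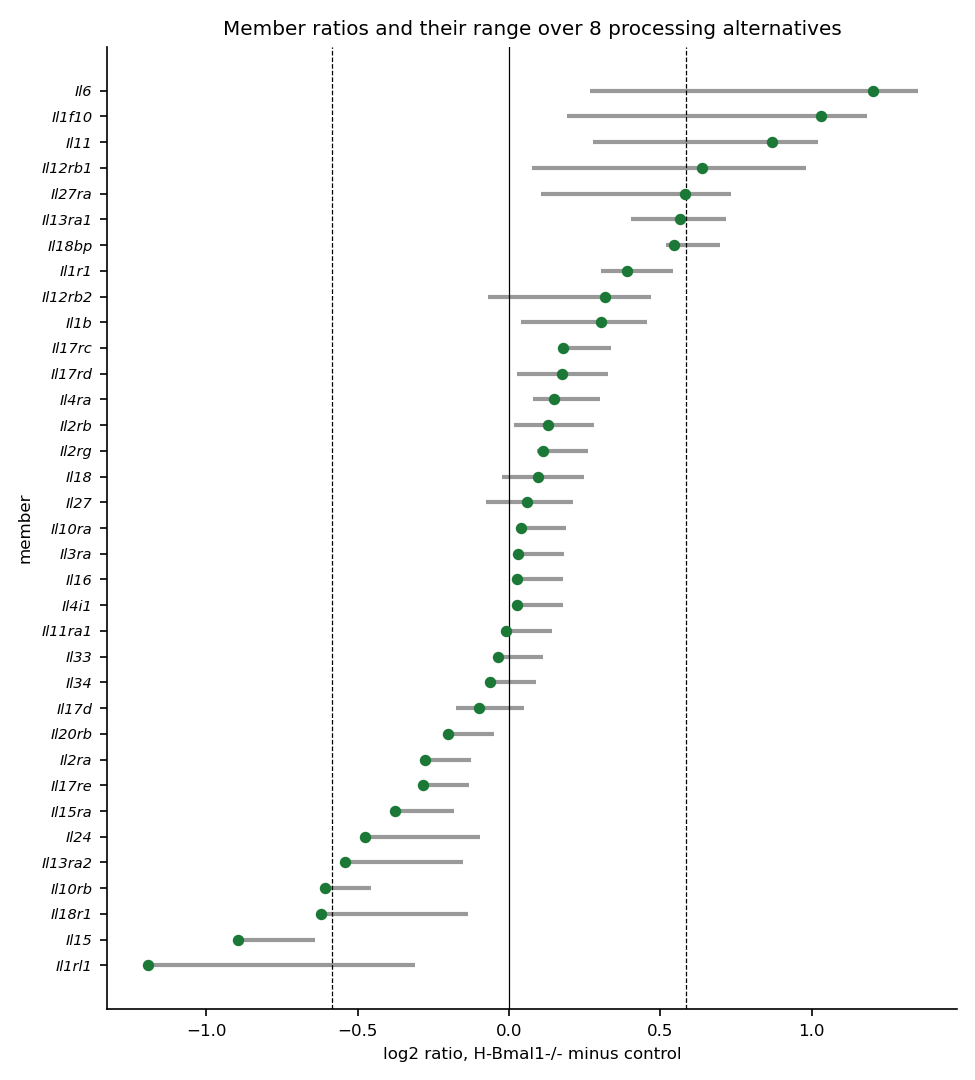
Log2 ratio, H-Bmal1-/- minus control, of each measured member as used for the counts (green points, with the bound for genes above background on 1 array only) and the lowest to highest value over the processing alternatives (gray bars). Dashed lines mark 1.5-fold. The bars of *Il15* lie wholly past the threshold, while those of *Il6*, *Il1f10*, *Il11*, *Il12rb1*, *Il18r1* and *Il1rl1* reach well inside it.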

How the data were processed

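Left ventricular RNA of 1 H-Bmal1-/- pool and 1 control pool was hybridised to an Agilent SurePrint G3 Mouse array for each. The deposited intensity values are the processed signals of the scanner files, linear and background-corrected by Agilent Feature Extraction, version 10.5.1.1 in the submitters' processing notes and 10.10.1.1 in the file headers. The authors' value table holds the same signals multiplied by 1 factor per array and was used as an alternative. Control spots and 269 of 59305 other spots with an outlier flag were left out, and 0 were saturated. Each probe was given the mean log2 signal of its repeated spots less the 75th percentile of the array, and each gene the mean of those probes that either array showed well above background. Probes were named through their RefSeq transcript and the RefSeq table of GRCm38.p6. Of 82 symbols that fit the rule, 3 had no probe matched and were not analysed here. For a gene above background on 1 array only, the count uses the bright signal against the higher of the dim array's lowest signal well above background and the gene's own value. Every measured member is named with its value, and so are mainly the 2 highest and 2 lowest genes of each list. The members and lists were chosen with earlier results of these data known. With 1 pool per genotype there is no test, and precision is limited by the number of arrays, by pooling and, for dim probes, by the spread between spots. The alternatives tried were normexp with an offset of 50, no scaling, quantile normalization, the median of bright probes as the scale, only probes above background on both arrays, no filter, the brightest probe of each gene and the value table. The processing was tested on simulated data. Python 3.11.15, pandas 2.3.3, R 4.3.3 and limma 3.58.1 were used.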

Additional observations from a re-analysis of the deposited data

How the results depend on the processing

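The comparison rests on 1 pool of 6 animals per genotype and 1 array per pool, so that differences between animals, pools and arrays cannot be separated from the genotype, and 16 of the 35 measured members had mean signals under 50. No paired analysis was possible because each group has 1 sample. Quantile normalization, scaling to the median of bright probes, the brightest probe of each gene and the authors' value table left the median between 0.03 and 0.08. Counts of members at least 1.5-fold higher were 4 to 6 and lower 3 to 4 in those settings. With no scaling between arrays, which moves the median of all genes to 0.14, the members' median was 0.19, with 7 members higher and 2 lower. With normexp, 0 were higher and 1 lower. With only probes above background on both arrays, 1 was higher and 3 lower. With no filter on dim probes the median over 79 members was -0.063, with 12 higher and 7 lower. At a threshold of 1.3-fold 8 members were higher and 6 lower, and at 2-fold 2 were higher and 1 lower. The sign of *Il11ra1*, *Il12rb2*, *Il17d*, *Il18*, *Il27*, *Il33* and *Il34*, all within 1.5-fold, turned under at least 1 alternative. With no scaling the medians of the IL-1 receptor adaptors, the JAK and STAT genes, the SOCS, CIS and PIAS inhibitors and the B cell and endothelial markers became positive, at 0.10, 0.09, 0.13, 0.03 and 0.04. The median of the IL-1 receptor adaptors was also above 0 under normexp, at 0.008. The median of the T and natural killer cell markers was -0.087 with only probes above background on both arrays and with no filter, and that of the dendritic cell markers was 0.25 under normexp.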
